A study of Mus musculus with 14 samples.

Results

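The *Msx* genes of the mouse are *Msx1*, *Msx2* and *Msx3*, and their promoter contacts were read from promoter capture Hi-C (PCHi-C) of cranial neural crest cells (CNCCs). In PCHi-C, cross-linked chromatin is cut with HindIII, neighbouring fragments are ligated, and ligation products that include a promoter fragment, the bait, are captured. Each gene was represented by the bait that holds its annotated start site, so the 3 genes gave 3 baits of the 22171 baits in the 14 libraries. These baits took part in 236 different pairs of a bait and another fragment (91 for *Msx1*, 62 for *Msx2* and 83 for *Msx3*) out of 1345534 different pairs in all. A pair was kept wherever one of these baits stood on either side of it, and a pair absent from a library's list was scored 0, meaning only that it lay under the listing threshold of 5.

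All 7 conditions had 2 replicate libraries. At E10.5, wild-type CNCCs came from the second pharyngeal arch (PA2), from the first arch, split into its mandibular (Md) and maxillary (Mx) parts, and from the frontonasal process (FNP). Wild-type pinna CNCCs, descendants of PA2, were taken at E12.5 and E14.5. Wild-type embryos were Wnt1::Cre;ROSARFP and their cells were sorted for RFP. This reporter marks every descendant of cells in which the Wnt1 promoter drove Cre, so each library pools all neural crest derivatives of its tissue. The remaining condition was PA2 of E10.5 Hoxa2EGFP/EGFP embryos, which carry EGFP in both copies of *Hoxa2* and lack its function. Their cells were sorted through that allele, so genotype and sort marker cannot be told apart in the knockout. FNP, Mx and Md are called *Hox*-negative, and wild-type PA2 and pinna *Hoxa2*-expressing. The *Hox*-negative libraries are all of E10.5 and the pinna libraries are not, so *Hoxa2* status and stage are confounded between these groups. Pinna and PA2 differ in stage and tissue together, and E14.5 tissue was dissociated with papain whereas the younger tissue was treated with trypsin. The data hold contacts and no RNA, so the labelled cell types could not be checked by marker genes. The authors describe the 2 replicates as biologically independent, but nothing in the labels says whether they came from separate litters. The tests measure only the spread between these libraries.

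The CHiCAGO score of a pair rises as its number of reads becomes less likely under a background that depends on distance and is fitted in that library, and the lists hold no score under 5. Between 119370 and 499756 pairs were listed per library (median 153275.5), and with no read counts in the lists the depth is unknown. The fewest pairs were listed in the knockout libraries (119370 and 128042). In Md replicate 1 and E12.5 pinna replicate 2, both named as merged, 46.5% and 62.7% of listed pairs joined different chromosomes, against 2.64% to 5.61% in the other 12 libraries. Contacts are therefore described on the gene's own chromosome, and the calls of comparisons that use these libraries are also given without them.

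Msx proteins are homeodomain transcription factors that mostly repress transcription, and *Msx1* and *Msx2* are classical targets of BMP signalling in the neural crest, the facial prominences, teeth and skull. In mice, loss of *Msx1* causes cleft palate and arrested teeth and loss of *Msx2* causes skull and skin appendage defects, whereas *Msx3* is known from the dorsal neural tube. Distal enhancers of such genes reach their promoters by looping, and a PCHi-C contact records that proximity without showing whether the gene is transcribed.

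The 3 baits differ in where the gene begins within them. On GRCm38, *Msx1* (ENSMUSG00000048450.10, minus strand) begins at position 37824583 in the bait chr5:37823645-37828386, and *Msx3* (ENSMUSG00000025469.10, minus strand) at position 140049089 in the bait chr7:140041016-140058546. *Msx2* (ENSMUSG00000021469.9, minus strand) begins at position 53473074 in the 1049 bp bait chr13:53473070-53474118, only 4 bases from the edge of the fragment, so its bait holds upstream sequence and almost nothing of the transcript. RefSeq places the *Msx2* start site 294 bases further downstream, outside the bait, and within 2 bases of the GENCODE site for the other genes. No other gene has a start site in any of the 3 baits. The edge of the *Msx2* bait (chr13:53473064-53473083, minus strand, 5′ to 3′) is printed to show how close the HindIII site, in capitals, lies to the start of the gene.

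Msx2 bait edge: agactcggcAAGCTTcctct

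The 250 bases upstream of each GENCODE start site, read on the minus strand from the GRCm38 genome (*Msx1* chr5:37824584-37824833, *Msx2* chr13:53473075-53473324, *Msx3* chr7:140049090-140049339), are printed to show what each bait presents at the promoter. Capitals mark matches on either strand to the motifs TATAAA, known from TATA boxes, to the CCAAT box, and to GGGCGG, the GC box.

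Msx1 promoter: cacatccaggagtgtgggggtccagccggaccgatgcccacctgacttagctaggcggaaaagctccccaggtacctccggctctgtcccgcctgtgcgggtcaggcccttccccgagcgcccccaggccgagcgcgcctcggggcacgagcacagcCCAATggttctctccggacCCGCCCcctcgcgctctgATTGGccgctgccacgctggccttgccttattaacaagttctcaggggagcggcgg

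Msx2 promoter: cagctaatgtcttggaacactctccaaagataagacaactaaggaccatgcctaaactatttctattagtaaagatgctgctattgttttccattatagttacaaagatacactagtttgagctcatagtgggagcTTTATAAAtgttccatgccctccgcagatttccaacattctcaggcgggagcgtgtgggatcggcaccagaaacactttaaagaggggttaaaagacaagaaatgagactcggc

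Msx3 promoter: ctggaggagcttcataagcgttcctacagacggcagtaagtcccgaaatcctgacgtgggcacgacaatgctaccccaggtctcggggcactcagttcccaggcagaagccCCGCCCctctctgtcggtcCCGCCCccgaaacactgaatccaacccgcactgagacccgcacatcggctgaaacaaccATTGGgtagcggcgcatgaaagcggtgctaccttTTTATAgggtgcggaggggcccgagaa

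The *Msx2* window had a GC content of 41.6% with 5 CpG, below that of *Msx1* (68.4%, 21 CpG) and *Msx3* (60%, 18 CpG). It was also below the median of 54.0% over 21931 promoters of protein-coding genes, of which 13.66% had a lower GC content. *Msx1* held CCAAT at 93 and 56 bases upstream and GGGCGG at 74. *Msx2* held neither, but TATAAA on both strands in 2 overlapping matches at 114 and 112 bases upstream. *Msx3* held TATAAA at 27, CCAAT at 61 and GGGCGG at 139 and 120. Of all promoters, 11.5% held TATAAA, 36.0% CCAAT and 39.0% GGGCGG. The *Msx2* GC content and motifs belong to the GENCODE start site. Their window does not overlap the RefSeq promoter of *Msx2* (chr13:53472731-53473030), whose composition was not read. The homeodomain core TAATTA (4.99% of promoters) and its variant TAATTG (7.24%) were absent from these 3 windows, which says nothing about Msx binding elsewhere.

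The contacts of the 3 promoters lay almost entirely on the upstream side. On the same chromosome, *Msx1* was listed with 62 fragments, *Msx2* with 54 and *Msx3* with 73 over all libraries. Within 2 Mb and in at least 2 libraries there were 31, 39 and 39 fragments, of which 30, 39 and 39 lay upstream of the gene. No fragment was listed in all 14 libraries, and the most frequent one of each gene was listed in 13.

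What the 3 promoters contacted differed in kind. All 39 of the recurrent *Msx2* fragments were intergenic and none was a bait, and they lay between 79.9 and 592 kb upstream (median 234 kb), in the gene-poor interval that ends around *Drd1*, the dopamine D1 receptor gene. Of the 31 *Msx1* fragments, 17 lay in introns of *Stx18*, which encodes a SNARE protein of the endoplasmic reticulum, 10 were intergenic and 2 were baits (median 228 kb from the start site). The 39 *Msx3* fragments lay further away, between 300.03 and 1181 kb (median 862 kb), in a gene-dense stretch in which 21 of them were baits themselves.

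**Figure D1:**
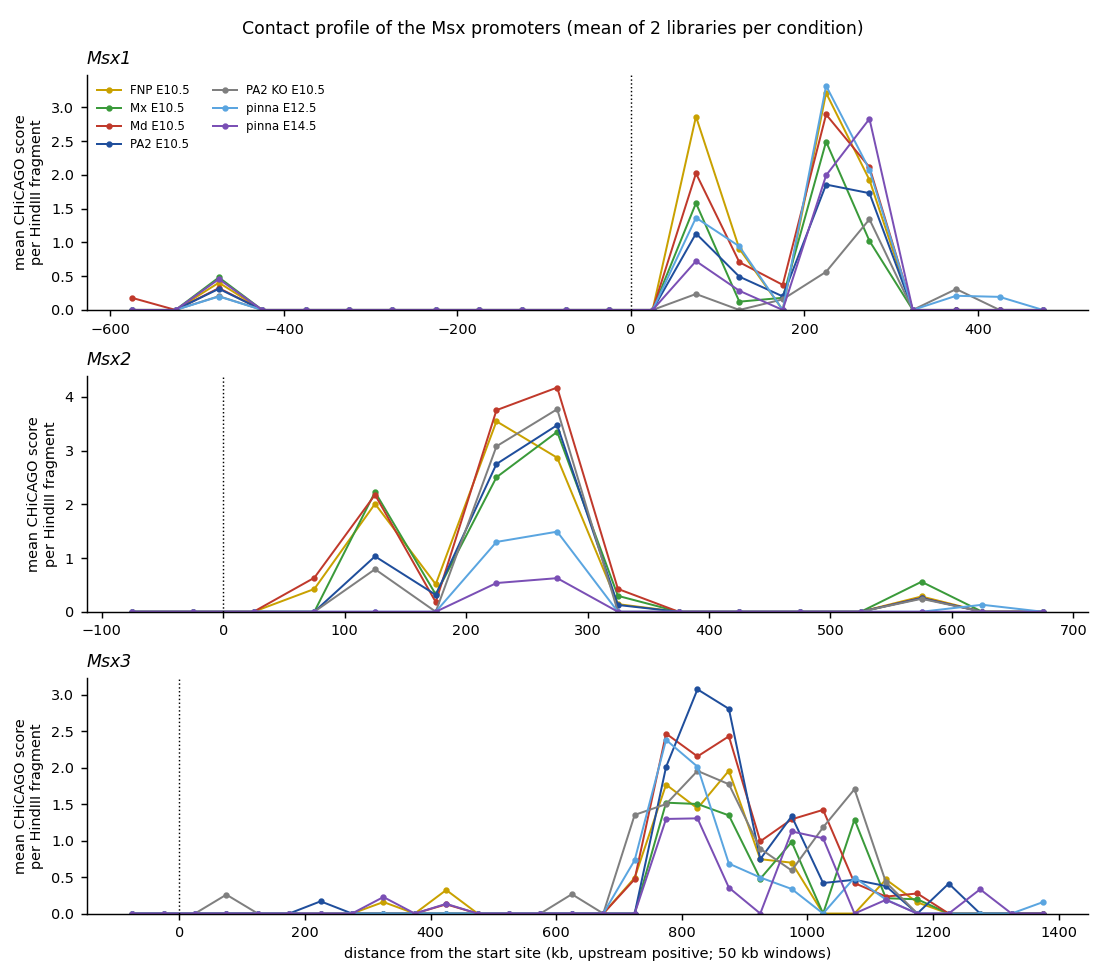
Contact profile of each *Msx* promoter: the x axis gives the distance from the start site in kb (upstream positive) in 50 kb windows, the y axis the mean CHiCAGO score per HindIII fragment with unlisted fragments as 0, and each line the mean of the 2 libraries of a condition. Most contacts lie upstream, *Msx1* also has a contact at 483 kb downstream, and the *Msx2* lines of the pinna run at 0 between 100 and 150 kb where those of the E10.5 conditions rise.

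Other promoters contacted the same fragments to different degrees. At least 1 of the 39 *Msx2* fragments was also listed with the bait of *Drd1* (13 fragments, 583 kb away), with that of *Sfxn1*, a mitochondrial serine transporter gene (10 fragments), and with that of the predicted gene *Gm5449* (6 fragments). The *Drd1* bait shared 5 and 4 of these fragments in the FNP libraries, 7 and 6 in the PA2 libraries and between 6 and 7 in the 4 pinna libraries, so its contacts there were still listed in the pinna. The *Msx1* fragments were shared mainly with *Stx18* itself (9 of 31) and with *Evc* and *Evc2* (7 of 31), neighbouring genes of the primary cilium. Most of the *Msx3* fragments were also listed with genes next to *Msx3* such as *Prap1* (37 of 39), *Adam8* (34) and *Caly* (34).

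Of the 3 genes, only *Msx2* had a number of contacts that passed a test over all baits, being lower in the pinna. Its bait was listed with 23 and 27 fragments of its own chromosome in FNP, 26 and 23 in Mx, 27 and 27 in Md, 26 and 14 in wild-type PA2, and 16 and 22 in knockout PA2, but with 10 and 6 in the E12.5 pinna and 1 and 5 in the E14.5 pinna. The 10 libraries of E10.5 had 23.1 ± 4.68 fragments (SD, n = 10) and the 4 pinna libraries 5.5 ± 3.70 (SD, n = 4), without overlap. Per 100000 same-chromosome pairs of the library, the condition means were 16.6 in FNP, 16.1 in the knockout, 15.9 in Mx, 15.4 in Md and 14.1 in PA2, and all of these neighbours overlapped. They were 5.34 in the E12.5 and 1.72 in the E14.5 pinna, which overlapped neither PA2 nor each other. In bulk libraries, fewer cells with a contact and a weaker contact in each cell cannot be told apart.

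**Figure D2:**
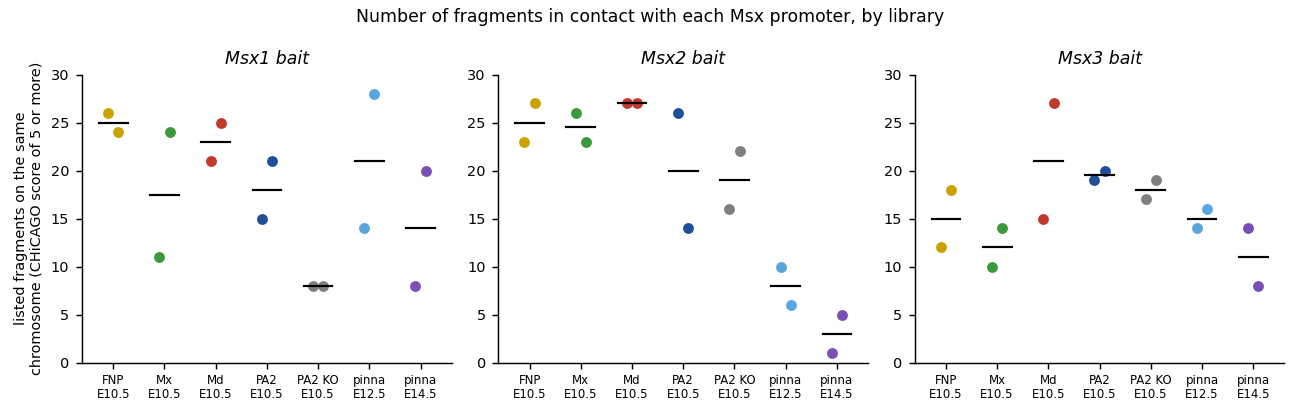
Number of fragments listed with each *Msx* bait on its own chromosome (y axis, CHiCAGO score of 5 or more) in each of the 7 conditions (x axis); dots are libraries and bars the mean of 2. The *Msx2* dots of the pinna lie between 1 and 10, below the 14 to 27 of the E10.5 libraries, and the *Msx1* dots of the knockout are both at 8.

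Scaled by the same-chromosome pairs of each library, the number of *Msx2* fragments was lower in pinna than in wild-type PA2 by a log2 difference of -2.18 (SE 0.39, limma over 21991 baits, adjusted p = 0.00457). In this comparison 1.83% of all baits were called and 1.13% were called lower. In 10.9% of baits the pinna libraries lay below both PA2 libraries, so the absence of overlap with PA2 alone is frequent. The *Msx2* pinna libraries lay below all 10 libraries of E10.5, which held for 1.55% of baits. Without PA2 replicate 1 the difference was -1.72 and no longer passed (limma adjusted p = 0.165). Without the merged libraries it was -1.88 (limma adjusted p = 0.0261), and against the mean of all 5 E10.5 conditions, a reference chosen after the values were seen, it was -2.37 (adjusted p = 1.04e-05).

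The median number of *Msx2* contacts was also lower in *Hoxa2*-expressing than in *Hox*-negative cells, a contrast that uses the same pinna and PA2 libraries. All *Hox*-negative libraries are of E10.5, and 4 of the 6 *Hoxa2*-expressing ones are pinna. *Hoxa2* status therefore cannot be told apart from stage and tissue here. The 6 *Hox*-negative libraries ranged from 23 to 27 fragments (median 26.5) and the 6 *Hoxa2*-expressing ones from 1 to 26 (median 8). The highest of them was PA2 replicate 1, within the range of the *Hox*-negative libraries. The log2 difference of -1.69 (SE 0.44) missed the threshold in limma (adjusted p = 0.0714, with 0.443% of 21889 baits called), and an exact permutation test of this single value gave p = 0.0152 (two-sided, 924 groupings). Both tests took the libraries as independent, although replicates share a condition. The permutation p was not adjusted over baits. Without PA2 replicate 1 or 2 the limma test was past the threshold at -2.08 (adjusted p = 0.00969) and -1.89 (adjusted p = 0.0286), and without the merged libraries the difference was -1.60 (adjusted p = 0.158). Among the 4 wild-type E10.5 subpopulations *Msx2* differed by at most 0.30 between condition means (adjusted p = 0.999), and no bait of 21991 passed limma there (0.0% called, 1214 with an unadjusted p under 0.05). In the knockout, *Msx2* was 0.26 higher than in wild-type PA2 (SE 0.45, adjusted p = 0.894), with both knockout libraries inside the wild-type range.

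The *Msx2* contacts missing from the pinna included all of those between 100 and 150 kb upstream. In this window, measured from the middle of the bait, the summed score was 42.33 and 46.13 in FNP, 52.66 and 45.44 in Mx, 49.5 and 46.36 in Md, 29.57 and 15.81 in wild-type PA2 and 15.98 and 18.87 in knockout PA2, and 0 in all 4 pinna libraries. All *Hox*-negative libraries lay above all 4 PA2 libraries of both genotypes, which held for 1.23% of the 81699 windows tested over all baits. The pinna had no listed contact, and 2.57% of windows were likewise at 0 in the pinna and listed in both wild-type PA2 libraries. The contacts came from 10 of the 22 HindIII fragments in the window, with 6 to 8 of them listed in each *Hox*-negative library, 3 to 5 in wild-type PA2 and 3 in each knockout library.

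Over all baits and their 50 kb windows within 1.5 Mb, the 100 to 150 kb window of *Msx2* was called lower in pinna than in PA2, by 3.77 on the asinh scale (SE 0.38, limma adjusted p = 0.000812), where 1.74% of 81699 windows were called. It kept this call when any of the 14 libraries was left out and without the merged libraries (adjusted p = 0.00586). Its pinna values are all 0 because the lists hold no score under 5, so they add no spread to the fit. Unlisted contacts there may lie just below that threshold. The window was also lower in *Hoxa2*-expressing than in *Hox*-negative cells, by a difference of -3.29 (SE 0.59, limma adjusted p = 0.00554, 0.43% of 118247 windows called). This call held in each of the 12 fits that left out 1 library, and without the merged libraries the difference was -3.03 but missed the threshold (adjusted p = 0.0713). Among the wild-type E10.5 subpopulations (limma adjusted p = 0.861, 0.0588% of windows called) and between knockout and wild-type PA2 (-0.22, adjusted p = 0.914, 1.13% called) it did not pass. The window fits were chosen after the contact lists had been seen.

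Further upstream *Msx2* kept part of its contacts in the pinna. Between 250 and 300 kb the summed score was 39.76 and 57.68 in FNP, 51.63 and 60.48 in Mx, 64.17 and 74.48 in Md, 61.75 and 49.45 in PA2, 47.26 and 73.43 in the knockout, 28.10 and 19.62 in the E12.5 pinna and 6.57 and 13.45 in the E14.5 pinna. All pinna libraries were lower than all E10.5 libraries, as in 1.39% of all windows, and none was at 0. The difference from PA2 was -1.31 (SE 0.24, limma adjusted p = 0.0252), lost when PA2 replicate 1 (-1.20, adjusted p = 0.193), PA2 replicate 2 (-1.42, adjusted p = 0.128), E12.5 pinna replicate 2 (-1.22, adjusted p = 0.0564) or the merged libraries (adjusted p = 0.0826) were left out. Between 200 and 250 kb the pinna libraries ranged from 0 to 30.34 and the E10.5 libraries from 27.59 to 71.90, and the difference from PA2 of -1.71 did not pass (limma adjusted p = 0.281).

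**Figure D3:**
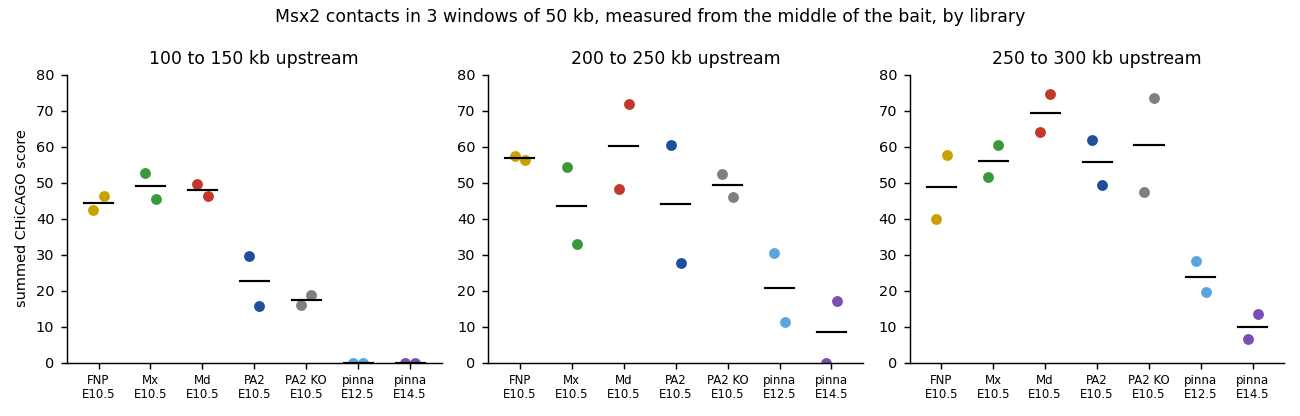
Summed CHiCAGO score of *Msx2* contacts (y axis) in 3 windows of 50 kb upstream, measured from the middle of the bait, in each of the 7 conditions (x axis); dots are libraries and bars the mean of 2. In the 100 to 150 kb window all 4 pinna libraries are at 0 and both PA2 genotypes lie between 15.81 and 29.57, below the *Hox*-negative libraries at 42.33 to 52.66.

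The window sums are made of single fragment scores, so the pairs locate the *Msx2* contacts and are not separate evidence. Of 24 *Msx2* pairs listed in at least 4 libraries, 20 were lower in pinna than in PA2 and 2 higher, with a median difference of -1.20 on the asinh scale against -0.02 over all 161898 pairs, of which 51% were lower. Of these 24 pairs, 12 were listed in no pinna library, against 12.3% of all pairs, and 4 of these in both PA2 libraries, against 3.22% of all pairs. Past the limma threshold were 3 of them (1.55% of all pairs called), and HindIII ends of these fragments (plus strand, the HindIII site in capitals) are printed to fix where the contacts missing from the pinna lie.

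chr13:53584062-53586990, left end: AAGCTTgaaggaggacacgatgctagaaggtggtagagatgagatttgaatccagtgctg

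chr13:53593707-53597687, left end: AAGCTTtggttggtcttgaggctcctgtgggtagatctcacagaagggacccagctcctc

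chr13:53767349-53772317, left end: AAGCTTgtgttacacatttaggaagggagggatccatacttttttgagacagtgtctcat

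The *Msx2* contact with chr13:53767349-53772317 had scores of 7.94 and 8.5 in FNP, 8.20 and 6.00 in Mx, 6.94 and 10.77 in Md, 6.12 and 8.80 in PA2 and 8.70 and 9.51 in the knockout, and was unlisted in all 4 pinna libraries (-2.69, SE 0.35, limma adjusted p = 0.00828; 0.0519 without PA2 replicate 2). It was therefore listed in every E10.5 library, the *Hoxa2* knockout included. The 2 fragments within the 100 to 150 kb interval were listed in all 8 wild-type E10.5 libraries and in none of the other 6. Scores of chr13:53593707-53597687 were 8.78, 9.26, 8.12, 8.77, 8.79 and 7.86 in the *Hox*-negative libraries and 6.93 and 5.05 in PA2 (-2.48, limma adjusted p = 0.0251). Those of chr13:53584062-53586990 were 7.01, 6.59, 5.77, 5.17, 7.25 and 8.08 in the *Hox*-negative libraries and 6.45 and 5.64 in PA2 (-2.50, adjusted p = 0.0342). With scores this near to the listing threshold of 5, an unlisted pair may lie just below it. Both calls were lost without PA2 replicate 1 (adjusted p = 0.164 and 0.169) or PA2 replicate 2 (0.0943 and 0.137), and the second also without either knockout library (0.0542 and 0.0537) or E14.5 pinna replicate 1 (0.0570). Without the merged libraries all 3 pairs passed (limma adjusted p between 0.0139 and 0.0381).

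The strongest *Msx2* contact was retained in part. The fragment chr13:53764081-53767348, 293 kb upstream, is shown because it adjoins a fragment that no pinna library listed.

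chr13:53764081-53767348, right end: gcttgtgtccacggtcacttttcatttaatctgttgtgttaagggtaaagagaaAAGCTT

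Its score was 7.85 and 10.91 in FNP, 13.51 and 11.08 in Mx, 14.28 and 12.72 in Md, 11.48 and 11.92 in PA2, 8.70 and 11.81 in the knockout, 5.41 and 0 in the E12.5 pinna and 6.57 and 6.52 in the E14.5 pinna. The pinna was again lowest, but 3 of its 4 libraries listed the pair. The mean score over 14 libraries was 9.48, followed by 7.02 for chr13:53679205-53684682 at 209 kb and 6.79 for chr13:53756282-53757815 at 284 kb, and the 10 fragments with the highest means all lay between 200 and 300 kb upstream.

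**Figure D4:**
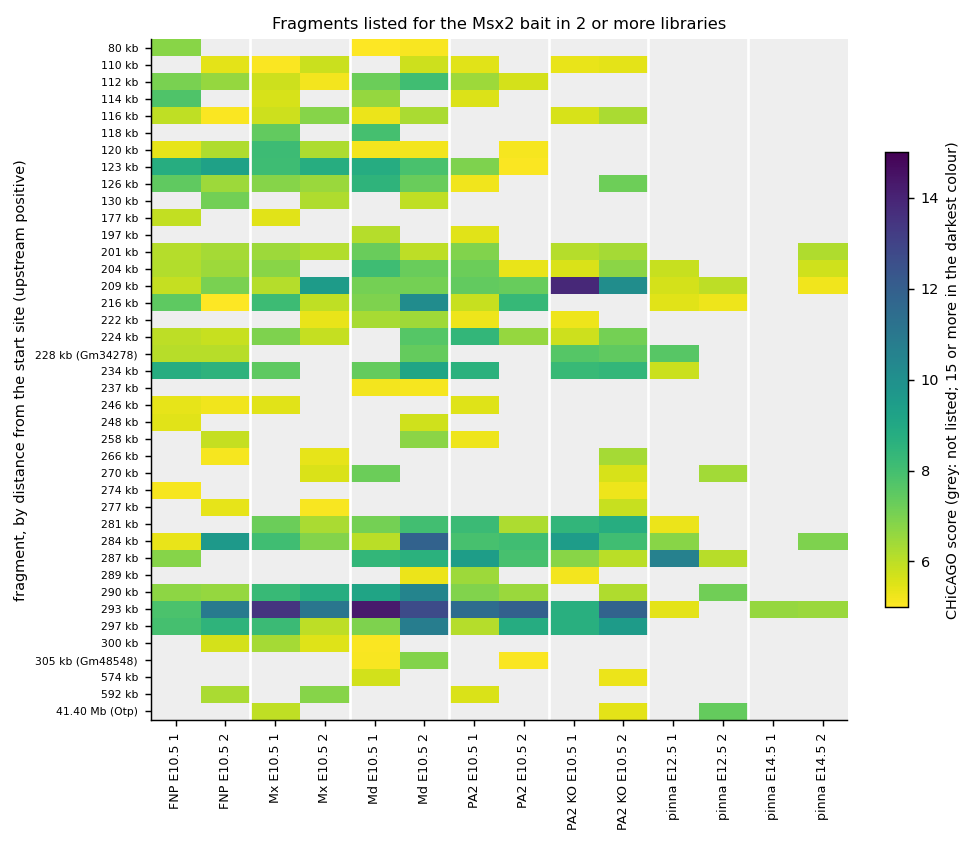
CHiCAGO scores of *Msx2* contacts, with fragments ordered by distance from the start site in kb, libraries along the other axis and colour for the score (unlisted pairs as 0). The 4 pinna libraries hold few listed fragments, with none between 100 and 150 kb, while the 10 libraries of E10.5 hold 2 blocks of contacts.

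Between *Hoxa2*-expressing and *Hox*-negative cells, 35 of 38 *Msx2* pairs were lower (median -0.84 against -0.01 over 286702 pairs, of which 52.2% were lower), but no *Msx* pair passed limma (0.0234% of all pairs called; 11 *Msx2* pairs, 1 *Msx1* pair and 2 *Msx3* pairs had an unadjusted p under 0.05). The *Msx2* pairs with the smallest p, all in the 100 to 150 kb interval, were chr13:53587432-53590566 (-2.46), chr13:53597688-53601213 (-2.27) and chr13:53593707-53597687 (-2.02), and the smallest adjusted p was 0.165.

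In the *Hoxa2* knockout, 2 single *Msx2* contacts were called lower than in wild-type PA2, while its number of contacts did not pass. Of 24 pairs, 11 were lower and 12 higher (median 0.00 against -0.09 over all pairs). The fragment chr13:53684683-53693535 was listed in all 8 wild-type E10.5 libraries (between 5.02 and 10.13, with 5.84 and 8.32 in PA2), in neither knockout library, and at 5.44 and 5.25 in the E12.5 pinna (-2.64, SE 0.45, limma adjusted p = 0.0102, 2.16% of all pairs called; 0.0688 without PA2 replicate 2). The fragment chr13:53593707-53597687, absent from the pinna, was likewise absent from both knockout libraries (-2.48, adjusted p = 0.0404), a call lost without any of the 4 PA2 libraries (adjusted p between 0.0999 and 0.180) or FNP replicate 1 (0.0514). Without the merged libraries both pairs passed (limma adjusted p = 0.0143 and 0.0255). Being listed in both wild-type and in neither knockout library applied to 3 of 24 *Msx2* pairs, against 11.8% of all pairs, in libraries that listed fewer pairs altogether. The knockout and pinna comparisons share the wild-type PA2 libraries.

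*Msx1* contacts varied more between replicates and less between conditions. Its bait was listed with 26 and 24 fragments in FNP, 11 and 24 in Mx, 21 and 25 in Md, 15 and 21 in PA2, 8 and 8 in the knockout, 14 and 28 in the E12.5 pinna and 8 and 20 in the E14.5 pinna. The knockout libraries were the lowest together with E14.5 pinna replicate 1. Per 100000 same-chromosome pairs the condition means were 16.7 in FNP, 13.1 in Md, 12.7 in the E12.5 pinna, 12.6 in PA2, 11.3 in Mx, 8.24 in the E14.5 pinna and 6.83 in the knockout, and every neighbour overlapped except FNP and Md. The limma test found a log2 difference of -0.30 between *Hoxa2*-expressing and *Hox*-negative cells (adjusted p = 0.650), -0.32 between pinna and PA2 (adjusted p = 0.726), and a largest difference of 0.64 among the E10.5 subpopulations (adjusted p = 0.975).

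Between knockout and wild-type PA2, *Msx1* differed by -0.82 (SE 0.38, limma adjusted p = 0.446, with 0.427% of baits called), so its 8 and 8 fragments against 15 and 21 did not pass over all baits. Of 26 *Msx1* pairs, 16 were lower and 3 higher in the knockout (median -0.67 against -0.09 over all pairs), and 7 were listed in both wild-type and in neither knockout library (11.8% of all pairs). Between 50 and 150 kb upstream the knockout libraries listed 0 and 1 fragments and the wild-type PA2 libraries 3 and 4, and between 200 and 300 kb 6 and 4 against 10 and 11. E14.5 pinna replicate 1 listed 0 and 7 in these intervals and its sister replicate 5 and 14. The low counts in the knockout go with the fewest listed pairs, and the part of depth in them was not tested.

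The strongest *Msx1* contacts lay in *Stx18*. The fragment chr5:38070054-38083020, 252 kb upstream and holding an internal start site of *Stx18*, had the highest mean score (10.8) and was listed in 13 libraries, with 7.60 and 8.10 in the knockout, 12.79 and 9.43 in wild-type PA2, 9.03 and 13.91 in the E12.5 pinna and 9.70 and 24.07 in the E14.5 pinna. Only Mx replicate 1 lacked it. The neighbouring chr5:38083021-38097215 (mean 8.91) was also missing from Mx replicate 1 alone, and both fragments were thus listed in the knockout and in the pinna. The intronic fragment chr5:38065864-38067259 (mean 8.36) had 18.90 and 14.20 in Mx, 9.62 and 11.95 in FNP, 7.51 and 11.81 in Md and 6.89 and 5.15 in PA2 but was unlisted in both knockout libraries and in E14.5 pinna replicate 1 (knockout against PA2 -2.48, limma adjusted p = 0.160). Outside *Stx18*, the highest mean belonged to the intergenic fragment chr5:37886285-37892060 at 64.6 kb upstream (5.84, 12 libraries), the nearest contact of the gene seen in at least 2 libraries. Downstream, the bait shared by *Evc* and *Evc2*, 483 kb away, was listed with *Msx1* in 10 libraries (mean 5.08).

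**Figure D5:**
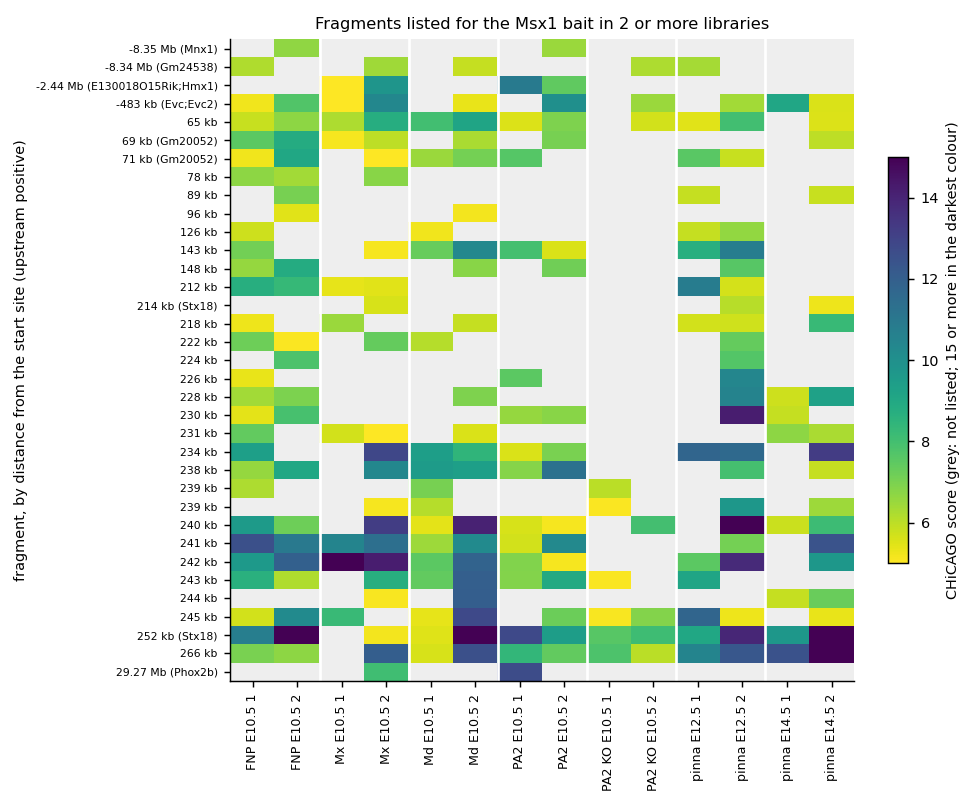
CHiCAGO scores of *Msx1* contacts, with fragments ordered by distance from the start site in kb, libraries along the other axis and colour for the score (unlisted pairs as 0). The fragments at 252 and 266 kb are listed in 13 of 14 libraries, the knockout libraries included, and every other fragment in at most 12.

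One *Msx1* contact joined it to a bait that holds a start site of another homeobox gene. The fragment chr5:35385734-35390350, 2.44 Mb downstream, is the bait of *Hmx1*, a homeobox gene required for the external ear. It also holds a start site of *E130018O15Rik*, so the contact cannot be assigned to either gene alone. *Msx1* and this bait were listed together at 5.02 and 9.80 in Mx and 10.90 and 7.46 in wild-type PA2, and in none of the other 10 libraries. Pairs were tested only when listed in at least 4 libraries, so this pair entered the tests solely through the 2 conditions in which it was listed, and its values are given without a test. Other *Msx1* partners on chromosome 5 at such distances included the homeobox gene *Mnx1* of motor neurons (8.35 Mb, 6.66 in FNP replicate 2 and 6.52 in PA2 replicate 2) and the noncoding *Gm24538* beside it (5 libraries, 5.86 to 6.44). *Msx2* had 1 such partner in at least 2 libraries, *Otp* of hypothalamic neurons at 41.4 Mb, with 5.96 in Mx replicate 1, 5.41 in knockout replicate 2 and 7.38 in E12.5 pinna replicate 2.

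*Msx3* contacts varied in number over the conditions, but no comparison passed. Its bait was listed with 12 and 18 fragments in FNP, 10 and 14 in Mx, 15 and 27 in Md, 19 and 20 in PA2, 17 and 19 in the knockout, 14 and 16 in the E12.5 pinna and 14 and 8 in the E14.5 pinna. Per 100000 same-chromosome pairs the order was knockout (15.3), PA2 (13.7), Md (11.96), FNP (9.85), E12.5 pinna (9.52), Mx (7.75) and E14.5 pinna (7.01), and of the neighbours only knockout and PA2 did not overlap. None of the differences passed limma. They were -0.01 between *Hoxa2*-expressing and *Hox*-negative cells (adjusted p = 0.992), -0.78 between pinna and PA2 (adjusted p = 0.267), 0.17 between knockout and PA2 (adjusted p = 0.910) and at most 0.81 among the subpopulations (adjusted p = 0.947).

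The most frequent *Msx3* partner, 833 kb upstream, was chr7:140878593-140884766, which holds the start sites of *Psmd13*, a proteasome subunit gene, and *Sirt3*, a mitochondrial deacetylase gene. It had a mean score of 7.22 and was listed in every library but E14.5 pinna replicate 1, with scores up to 12.66 in PA2 replicate 1. Next came the fragment of *Odf3* and *Scgb1c1* (chr7:140840751-140847816, mean 5.91, 10 libraries) and chr7:140816804-140821318 (mean 5.46, 9 libraries). The 10 fragments with the highest means also included those with start sites of *Syce1* of the synaptonemal complex, *Zfp941*, *Urah* of uric acid breakdown and *Nlrp6*, an innate immune sensor (chr7:140919491-140923471, mean 4.31), the last unlisted in 3 of the 4 pinna libraries. Between 700 and 1000 kb upstream, *Msx3* was listed with 8 to 22 fragments in the E10.5 libraries and 7 to 13 in the pinna, out of 68 HindIII fragments, and the 2 sets overlapped.

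*Msx3* shared a contact with another promoter in 2 conditions. The fragment chr7:141119853-141122609 is the bait of *Ptdss2*, a phosphatidylserine synthase gene, and was listed at 6.93 and 5.52 in Mx and 5.00 and 5.88 in the knockout and in no other library. All 4 scores lay near the listing threshold. This pair too entered the tests only through the conditions in which it was listed, so no test is given for it. Of the remaining *Msx* pairs, with the *Msx1* pair with *Hmx1* also set aside, none passed limma among the E10.5 subpopulations (0.964% of all pairs called).

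The pathway that induces *Msx* genes, BMP signalling, showed few changes in number of contacts. Of 24 genes for BMP ligands, receptors, transducers, targets and antagonists (25 baits), the receptor gene *Bmpr1b* was called higher in *Hoxa2*-expressing than in *Hox*-negative cells (1.38, SE 0.22, limma adjusted p = 0.00631; 1.33 and adjusted p = 0.0259 without the merged libraries) and no gene lower. Leaving the merged libraries out, *Bmp5* was called higher as well (0.83, limma adjusted p = 0.0493). Over all baits 0.27% were called higher in this comparison with all libraries. *Bmpr1b* had 11 to 17 fragments in the 6 *Hox*-negative libraries, 25 and 22 in PA2, 19 and 21 in the knockout, 52 and 53 in the E12.5 pinna and 29 and 55 in the E14.5 pinna. The *Hoxa2*-expressing libraries did not overlap the *Hox*-negative ones, as was the case in this direction for 0.58% of all baits. The BMP antagonist *Grem1* was called higher in pinna than in PA2 (1.40, limma adjusted p = 0.0343; 1.46 and 0.0488 without the merged libraries; 0.7% of all baits called higher), with 17 to 26 fragments in the pinna, 6 and 7 in PA2 and 4 to 9 in the other E10.5 libraries. *Bmpr1b* and *Grem1* moved opposite to *Msx2*, but they were picked by their calls, and *Msx2* was not called in the comparison of *Bmpr1b*. In pinna against PA2 without the merged libraries, members such as *Chrd* and *Bambi* were lower instead, without passing. None of the 25 baits was called among the E10.5 subpopulations or in the knockout, and the median over the list was -0.01 in the pinna comparison, against -0.02 over all baits.

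Of 18 genes for other transcription factors of the facial mesenchyme (19 baits), none was called higher in any comparison. *Alx4*, a homeobox gene of the upper face, was called lower in *Hoxa2*-expressing than in *Hox*-negative cells (-1.51, limma adjusted p = 0.0115; -1.57 and 0.0218 without the merged libraries; 0.174% of all baits called lower), with 51 and 40 fragments in FNP, 37 and 29 in Mx, 22 and 25 in Md, 6 and 16 in PA2 and 10 to 13 in the pinna. Leaving the merged libraries out, *Alx1* was called lower in this comparison as well (-1.70, limma adjusted p = 0.0493). Lower in pinna than in PA2 were the homeobox genes *Dlx1* (-1.63, adjusted p = 0.00333; 35 and 39 fragments in PA2 and 11 to 17 in the pinna) and *Dlx2* (-1.19, adjusted p = 0.0308), which act in arch patterning, and the neural crest gene *Pax3* (-1.26, adjusted p = 0.00423), 3 of 19 baits against the 1.13% of all baits called lower. Without the merged libraries these were -1.54, -1.19 and -1.09 (limma adjusted p = 0.00482, 0.0464 and 0.00895). The median of this list in the pinna comparison was -0.48 against -0.02 over all baits. Unlike *Msx2*, whose E10.5 libraries were high throughout, *Dlx1* had 12 to 23 fragments in the *Hox*-negative libraries and 39 to 51 in the knockout.

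The baits whose scaled number of fragments ran most like that of *Msx2* over the 14 libraries, among 13251 baits with a listed fragment in all of them, were those of *Gm25827* (Pearson r = 0.952), *En2*, a homeobox gene of the midbrain (0.944), the small nuclear RNA gene *Rnu1a1* (0.938), *Hoxd12*, a homeobox gene of the distal limb (0.936), and the bait of *Rad51c* and *Tex14* (0.936), where the 99th percentile of all baits was 0.839. By rank (Spearman rho) these 5 baits were less alike to *Msx2*, between 0.609 and 0.798. The bait of *Rnu1a1* and that of *Rad51c* and *Tex14* lie close together on chromosome 11. For *Msx1* the closest by Pearson r were *Zfp959* (0.863) and *Ythdf3* (0.826) at a 99th percentile of 0.642, and for *Msx3* *Fbxo17* (0.870) and *Gm10837* (0.867) at 0.699. None lay within 2 Mb of the *Msx* gene, and all values share the depth and background of the same libraries.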

How the data were processed

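PCHi-C was measured in 14 libraries of mouse CNCCs, 2 replicates of each of 7 conditions. Mapping to GRCm38/mm10 (HiCUP) and scoring (CHiCAGO) were done by the authors, who deposited for each library the fragment pairs with a CHiCAGO score of at least 5. Read counts were not used here, so depth and counting error are unknown, and precision rests on the spread between libraries, which listed 119370 to 499756 pairs. HindIII sites of GRCm38 matched the ends of all 524028 fragments on chromosomes 1 to 19, X and Y. Baits were assigned to genes by GENCODE vM21 start sites. The members and the gene lists were chosen with earlier results of these data known.

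Pairs were compared on asinh of the score by limma (lmFit, then trended eBayes), two-sided, with Benjamini-Hochberg adjustment over all pairs and a threshold of 0.05. *Hoxa2*-expressing and *Hox*-negative cells were compared over 12 libraries (pairs listed in at least 2), and the other 3 comparisons used 7 condition means over 14 libraries (pairs listed in at least 4). The comparison over 12 libraries took replicates of a condition as independent. The number of listed fragments per bait was fitted likewise as log2 of the number plus 0.5 over the same-chromosome pairs of the library plus 1, times 100000. The exact permutation test enumerated all groupings of the libraries, which for 4 pinna and 2 PA2 libraries allows no exact p below 0.0667. Named were, for each *Msx* gene, fragments among the 10 with the highest mean score, every *Msx* pair past the threshold or else the 3 with the smallest p, and baits among the 5 with the most similar pattern. Distant partners, shared baits and the 50 kb windows were chosen after their values were seen. A distant partner and a promoter sequence are not reported here. Motifs were searched on both strands of 250 bases upstream of GENCODE start sites in GRCm38.

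Replicate numbers were checked as pairs: of 21 correlations of deviations from condition means between conditions, from -0.09 to 0.12, 1 exceeded 0.1, so the numbers were not taken to pair libraries. The fits were tested on simulated data with 200 features shifted by 2. In pinna against PA2, 26% of shifted baits of 21991 and 5% of shifted pairs of 161898 were recovered, with 2 and 24 other calls. For *Hoxa2*-expressing against *Hox*-negative cells these shares were 69.5% of 21889 and 11.5% of 286702. Among the E10.5 subpopulations 9.5% of shifted baits and 2.5% of shifted pairs were recovered, and for knockout against wild-type PA2 5% and 2%. Most changes of this size would therefore be missed in both comparisons. Other settings were quantile normalization, equal top pairs per library, a threshold of 10, a cap of 20, other filters and scalings, the replicate block, and leaving out each library. Tools were limma 3.58.1 and the R package data.table (version 1.17.8) under R 4.3.3, and NumPy 2.4.6, pandas 2.3.3 and matplotlib 3.10.9 under Python 3.11.15.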

Additional observations from a re-analysis of the deposited data

Results flagged for a closer look

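The scaled number of *Msx1* fragments in E14.5 pinna replicate 1 was 2.55 on the log2 scale, the lowest of the 6 *Hoxa2*-expressing libraries, and its gap to the next one was past the limit of Dixon's test for an outlying value. Of 6 groups of libraries examined in this way 1 stood out, and chance alone flags about 1 in 20.

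Contacts on other chromosomes, which the comparisons did not use, numbered 21 for *Msx1*, 5 for *Msx2* and 7 for *Msx3* in E12.5 pinna replicate 2 and 7 for *Msx1* in Md replicate 1. All 4 values are above the 3 listed fragments taken as a floor, while no other library listed more than 3 for any *Msx* bait. These are the libraries named as merged, in which 62.7% and 46.5% of all listed pairs joined different chromosomes.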

How the results depend on the processing

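The lists give no depth and no score under 5, so how far an unlisted pair lies under the threshold is unknown, and with 2 libraries per condition a call can rest on 1 library. Among the counts of calls and the values per bait, 378 kept direction and side of the threshold under an alternative, 43 lost it, 11 gained it and 13 turned sign. The cause was not tested unless the alternative itself removes libraries or scores.

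With a score threshold of 10, *Msx2* in pinna against PA2 was -1.30 (adjusted p = 0.394), leaving 0 *Msx* baits called, and the differences turned for *Msx1* (0.41 in *Hoxa2*-expressing against *Hox*-negative cells, 0.16 in pinna against PA2) and *Msx3* (0.34, 0.31 and, in the knockout, -0.61), all without passing. The pair of *Msx3* with chr7:140816804-140821318 also turned (-0.042 in *Hoxa2*-expressing against *Hox*-negative cells). In the knockout, *Msx3* turned without scaling by the library (-0.11) and with asinh of the summed score (-0.073), and *Msx2* without scaling (-0.025). The exact permutation test gave an unadjusted p = 0.0152 for *Msx2* in *Hoxa2*-expressing against *Hox*-negative cells (-1.69). It shuffled replicates of a condition as independent libraries, and limma over all baits missed its threshold there.

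*Msx* pairs called numbered 2 among subpopulations, 4 in pinna against PA2 and 4 in the knockout. Calls of the *Msx1* pair with *Hmx1* and the *Msx3* pair with *Ptdss2* are not read as results. Both met the filter of 4 libraries only through the conditions that listed them, and both are included in these counts. With a filter of 2 libraries each became 7, with a threshold of 10 each became 0, with capped scores 0, 1 and 0, with quantile normalization 0, 2 and 1, with equal top pairs 1, 1 and 0, and in 50 kb windows, an alternative chosen after seeing the data, 0, 2 and 0, with 1 in *Hoxa2*-expressing against *Hox*-negative cells. With the bait in the first column only, 1 was called among subpopulations. Without the merged libraries, also chosen after seeing the data, 0 were called among subpopulations, 5 in pinna against PA2 and 7 in the knockout. With the replicate block, 0 were called among subpopulations, 3 in pinna against PA2 (2513 called over all pairs, 1985 with the block) and 3 in the knockout. The block left the *Msx2* bait call in pinna against PA2 in place (adjusted p = 0.00456).

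With each library left out in turn, the pairs called ranged from 0 to 3 among subpopulations, 0 to 7 in pinna against PA2 and 0 to 6 in the knockout. Without PA2 replicate 1 or 2 they were 1 and 0 in pinna against PA2, and 1 and 0 in the knockout. Without E12.5 pinna replicate 1 they were 7 in pinna against PA2. In the knockout they were 2 without either Mx library and 1 without either knockout library. Among subpopulations 2 or more stayed only without Md replicate 2. *Msx* baits called ranged from 0 to 1 in pinna against PA2 and in *Hoxa2*-expressing against *Hox*-negative cells. *Msx2* ranged from -2.63 to -1.72 in pinna against PA2, from -2.08 to -1.24 in *Hoxa2*-expressing against *Hox*-negative cells and from -0.20 (without PA2 replicate 2) to 0.72 in the knockout. *Msx3* ranged from -0.12 to 0.20 in *Hoxa2*-expressing against *Hox*-negative cells and turned without FNP replicate 2, Md replicate 2, E12.5 pinna replicate 2 or E14.5 pinna replicate 2.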
